A study of Homo sapiens with 30 samples.

Results

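FaDu, an established squamous carcinoma line of the human hypopharynx, was compared with SiHa, an established squamous carcinoma line of the human cervix, with both lines kept in medium at pH 6.5. The comparison takes the 10 libraries that the labels give to FaDu or SiHa at pH 6.5, of 30 libraries in the series, and runs across all genes of the deposited table. FaDu has replicates 1, 2, 3, 4 and 5, and SiHa has replicates 1, 4, 5, 6 and 7. The rest of the series consists of the same lines at pH 7.4 and of the colon carcinoma line HCT116 at both pH values, with 5 libraries in each of 6 groups. Cells at pH 6.5 had been held at that pH for at least 1 month. All groups shared DMEM with 10 mM glucose, 2 mM glutamine, 10% fetal bovine serum, penicillin, streptomycin and the buffers HEPES (25 mM) and PIPES (25 mM), at 37 °C in 5% CO2. No gene was altered and no agent was added, as far as the labels say. Each side of the comparison is 1 cell line, so a difference belongs to these lines as grown here and not to tumours of the pharynx or the cervix in general. Nothing in the labels tells whether replicates were separate cultures, so a p-value here weighs a difference against the spread of the libraries alone, and that spread may be technical.

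As background, squamous epithelium is built from stacked keratinocytes that are held together by desmosomes and filled with keratin filaments. The transcription factor TP63 and the basal keratins KRT5 and KRT14 mark its basal layer, and GRHL2, ELF3 and OVOL1 maintain epithelial genes. ZEB1, ZEB2 and SNAI1 are repressors of epithelial genes such as CDH1, and microRNAs of the miR-200 and miR-205 families are known to repress ZEB1 and ZEB2 in turn. FaDu is known as a papillomavirus-negative line and SiHa as a papillomavirus-positive one, and viral reads were not analysed here. A medium at pH 6.5 is more acidic than normal tissue fluid, and cells answer acid with proton and bicarbonate transporters, carbonic anhydrases and proton-sensing receptors.

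Values are normalised read counts, that is, reads per gene divided by a size factor per library. They are given as mean ± SD over the 5 libraries of a line, or for each library in the order of the replicate numbers above. Differences are log2 values of FaDu minus SiHa ± SE on the scale of log2(normalised count + 1), tested with limma and adjusted by the Benjamini-Hochberg method. A positive difference is higher in FaDu and a negative one is higher in SiHa. A gene was tested where its mean reached 10 in the higher line, and it was called where the adjusted p was under 0.05 and the difference at least 2-fold. In counts of list members, higher means called in this way, and within 2-fold means that the whole 95% interval of the difference lay between -1 and 1; an interval given for a gene is that interval, on the log2 scale. A pair of values joined by "and" after a gene are FaDu first and SiHa second. A gene with 0 reads in all 5 libraries of a line has no measured ratio. It is given as at least N-fold, against the level of 3 reads per library that a count of 0 allows, which is a mean of 2.86 in FaDu and 3.22 in SiHa and covers counting error only. Genes with 1 to 3 reads in all in a line are given by their levels alone. Where a line has only a few reads per library, the size of a difference depends on the 1 that is added to the count. The SE does not cover that, and such a difference is not a measured ratio.

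The 5 FaDu libraries held 31.6 to 50.8 M reads and the 5 SiHa libraries 25.3 to 39.7 M. Genes restricted to a line stood at 82.9% to 105% of their level in the other libraries of that line, and genes of another line at no more than 0.0723%. Across genes, Pearson's r was 0.973 to 0.993 between FaDu libraries, 0.977 to 0.993 between SiHa libraries and 0.786 to 0.814 between lines. FaDu replicate 1 stood apart: of 12660 genes with a mean of at least 100 in FaDu, 250 were more than 2-fold above and 426 more than 2-fold below the median of the other 4 FaDu libraries there. SiHa replicates 1, 4 and 7 had 127, 86 and 76 such genes above, and 53, 58 and 230 below, of 12342 genes.

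Markers of the labelled cell types were checked next. All 12 squamous markers had a mean of at least 100 in FaDu, with a summed level of 311337 to 471625, but 5 of 12 in SiHa, with a summed level of 35455 to 47230. TP63, KRT5, KRT6A, DSG3, DSC3 and GRHL2 were among the markers at under 100 in SiHa, and the latter 3 had at most 3 reads in each SiHa library. TRIM29, SFN, PERP, PKP1 and KRT14 stayed above 100 there, and TRIM29 was higher in SiHa than in FaDu. The label of squamous carcinoma is thus matched by the full marker set in FaDu and by part of it in SiHa. Of the 7 fibroblast markers, 5 had at most 3 reads in every FaDu library and 1 in every SiHa library; their summed level was 337 to 521 in FaDu and 1131 to 3412 in SiHa, where COL3A1 carried most of it. The 4 endothelial markers summed to 391 to 2395 in FaDu, through CDH5 and VWF, and to 3.59 to 13.7 in SiHa, and KDR was at or near 0 in both lines. The 6 immune markers summed to 97.1 to 148 and 827 to 1903, mostly CD14, with PTPRC at a mean of 3.94 and 0.793. The 7 Muellerian or endocervical markers summed to 778 to 1581 in FaDu and 1307 to 1545 in SiHa. Of these, 3 had at most 3 reads in every SiHa library and 0 in every FaDu library, and 3 had a mean of at least 100 in FaDu but 1 in SiHa. The 6 markers of any epithelium summed to 125584 to 170403 in FaDu and 31519 to 97908 in SiHa. Colon and adipocyte markers summed to under 100 in every library. The part of other cells in these values was not tested.

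The lines differed across most of the transcriptome. Of 19879 genes tested, 14735 (74.1%) had an adjusted p under 0.05. At 2-fold or more, 4469 genes (22.5%) were higher in FaDu and 3787 (19.1%) in SiHa, 41.5% in either, and 2489 and 1694 of them differed by at least 4-fold. For 8309 genes (41.8%) the 95% interval of the difference lay within 2-fold, and for 11937 (60.0%) no FaDu value overlapped a SiHa value. The median difference over all genes was 0.06. These shares are the background for every count of list members that follows. At least 100 normalised counts in FaDu with at most 3 reads in each SiHa library were found for 296 genes (1.49%), and the reverse for 82 (0.412%).

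Most squamous lineage genes were higher in FaDu than in SiHa. Of the 12 squamous markers, 10 were higher in FaDu and 1 in SiHa, which was TRIM29 (difference -1.43). KRT5, the basal keratin, stood at 356737, 263333, 266710.0, 225800.0 and 236520.0 in the FaDu libraries and at 72.8, 37.8, 33.2, 20.7 and 13.7 in the SiHa libraries. The lines did not overlap, and the transcript took 0.636% to 0.916% of all reads in FaDu. The difference was 13.04 ± 0.33 (limma adjusted p = 3.99e-12). TP63, the master regulator of squamous epithelium, was 5768, 5950.4, 5517, 5560.4 and 6018 in FaDu and 14.8, 5.60, 8.97, 13.8 and 0 in SiHa. Every FaDu library was far above every SiHa library, where the gene had only scattered reads (difference 9.71 ± 0.59, adjusted p = 1.02e-08, and 9.02 without SiHa replicate 7). GRHL2, a factor that activates epithelial junction genes, was 3246, 5185, 4343, 4141 and 5266 against 0, 1.40, 1.79, 0 and 0, so that SiHa was at the floor.

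Of 26 squamous and epithelial transcription factors tested, 16 were at least 2-fold higher in FaDu and 3 in SiHa, with a median difference of 2.14. ELF3 was 5147 ± 1206 in FaDu and 4.82 ± 5.66 in SiHa (difference 10.15 ± 0.43). BARX2, a homeobox factor, was 2720.0 ± 562 and 2.75 ± 2.04 (difference 9.72 ± 0.41). OVOL1 had 126 ± 12.7 in FaDu and a mean of 0.451 in SiHa. Not all factors followed: TFAP2A was 2670.1 ± 49.5 and 3396 ± 561, with an interval of -0.54 to -0.12, and FOXE1 was 591 ± 104 and 799 ± 71.6, with an interval of -0.71 to -0.18.

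Keratins were mostly higher in FaDu. Of 15 keratins of stratified epithelium tested, 12 were higher in FaDu and 0 in SiHa; the median difference was 6.44, or 6.38 with genes at 0 set to their bound. KRT13, a keratin of non-cornified stratified mucosa, was 1112, 13497, 5664, 4901 and 7410.4 in FaDu and 0 in all 5 SiHa libraries. FaDu replicate 1 was the lowest of its line, and the mean was at least 2027-fold higher in FaDu. KRT4, the partner of KRT13, was 4102 ± 3691 in FaDu and 13.6 ± 11.1 in SiHa, and KRT14 was 17492 ± 9607 and 129 ± 87.5. KRT17 was not called at 2-fold, at 26435 ± 3228 and 40119.9 ± 22552 (interval -1.12 to 0.28), and KRT10 was within 2-fold, at 1947 ± 196 and 2363 ± 181. Among 5 keratins of simple epithelium, KRT19 was higher in FaDu (34402 ± 6448 against 247 ± 281, difference 8.07 ± 0.77, which was 8.69 without SiHa replicate 1 and 7.31 without SiHa replicate 7) and KRT7 in SiHa (1219 ± 76.8 against 23528 ± 5886, difference -4.24 ± 0.13). KRT18 was higher in FaDu (12729 ± 938 against 4773 ± 1286), and KRT8 was not called at 2-fold, at 110133 ± 13974 and 58700.4 ± 22406 (adjusted p = 0.00219). KRT23 had 17.2 ± 7.72 in FaDu and 0 reads in SiHa.

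Desmosome genes were higher in FaDu for 10 of 14 members tested and in SiHa for 0. The desmosomal cadherin DSC3 was 4340.2, 8467, 5878, 5254 and 6855 in FaDu and 1.35, 1.40, 0, 0 and 0 in SiHa, and DSC2 was 1239 ± 186 in FaDu and 0 in every SiHa library, at least 385-fold lower. DSG3 was 2792 ± 292 and 1.62 ± 1.51. The simple-epithelial cadherin DSG2 was within 2-fold (10547 ± 668 and 7025 ± 1228, interval 0.35 to 0.85), as were PERP (20320.1 ± 1308 and 12200.3 ± 1436) and PPL (19695 ± 3939 and 13779 ± 1278). The plaque proteins JUP and PKP2 lay between, with differences of 2.57 ± 0.10 and 2.74 ± 0.12. SiHa libraries thus held transcripts of the plaque and of DSG2 but none beyond the floor for DSC2, DSC3 and DSG3.

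Genes of the outer, cornified layers were mixed. Of 21 tested, 12 were higher in FaDu and 4 in SiHa, with a median of 2.23 (1.87 with genes at 0 at their bound). HRNR and FLG, 2 proteins of the filaggrin family, were 548 ± 296 and 306 ± 153 in FaDu and 1.19 ± 1.74 and 1.37 ± 1.37 in SiHa. TGM1, the transglutaminase that cross-links the envelope, was 1102 ± 368 and 47.7 ± 12.8. CASP14, a caspase of cornification, ran the other way, at a mean of 0.278 in FaDu and 74.2 ± 54.4 in SiHa. Of 21 kallikreins and clade B serpins, proteases of the shedding surface and their inhibitors, 12 were higher in FaDu and 3 in SiHa. KLK5 was 1855, 2044, 2421, 2221 and 1957 in FaDu and 0 in all SiHa libraries, at least 653-fold lower. ST14, the membrane protease matriptase, was 7905 ± 1296 and 19.4 ± 12.9 (difference 8.82 ± 0.36). The S100 family, calcium-binding proteins encoded in 1 cluster for the most part, moved in both directions: 2 of 13 were higher in FaDu and 7 in SiHa. S100A2 and S100A14 had differences of 6.13 ± 0.24 and 5.76 ± 0.16, S100A6 and S100A4 of -2.61 ± 0.10 and -2.49 ± 0.13, and S100A16 was 7404 ± 1093 and 7408 ± 2021 (interval -0.36 to 0.44).

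The repressors of epithelial genes showed the reverse pattern. ZEB1 was 4.16, 2.78, 0, 1.04 and 1.10 in FaDu and 864, 1275, 1282, 1224 and 1202 in SiHa. FaDu was at or near 0 in every library and SiHa ranged from 864 to 1282 (difference -8.90 ± 0.37, adjusted p = 2.52e-10). ZEB2 was 2.78 ± 2.29 and 91.8 ± 19.9 (difference -4.85 ± 0.43), and SNAI1 was 90.6, 32.6, 52.5, 57.4 and 44.2 in FaDu and 1669.7, 1680.4, 1381, 1172 and 910.3 in SiHa (difference -4.64 ± 0.25). All SiHa values of SNAI1 were above all FaDu values. The transcript MIR205HG, which is the host of miR-205, was among the largest differences in the other direction, at 7352, 16668, 15271, 15032 and 19992 in FaDu and 1.35, 1.40, 0.897, 0.862 and 0 in SiHa. A host transcript is not a measure of the mature microRNA, which these libraries do not give. The mature sequences of miR-205 and of the miR-200 family are shown because their seeds are the part that pairs with ZEB1 and ZEB2 messages; they are from RefSeq (GRCh38.p14), 5′ to 3′, with the seed (bases 2 to 8) in capitals. They fall into 3 seed groups, miR-205 alone, 3 members with one seed and 2 members with another.
hsa-miR-205-5p: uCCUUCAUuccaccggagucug
hsa-miR-200c-3p: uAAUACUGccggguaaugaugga
hsa-miR-200b-3p: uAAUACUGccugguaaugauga
hsa-miR-429: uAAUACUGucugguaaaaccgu
hsa-miR-141-3p: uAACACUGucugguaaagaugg
hsa-miR-200a-3p: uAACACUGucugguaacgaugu

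Epithelial adhesion genes, the class that ZEB1 and SNAI1 are known to repress, were higher in FaDu for 26 of 35 members and in SiHa for 2, with a median of 4.04 (3.48 with genes at 0 at their bound). CDH1, the epithelial cadherin, was 5300.1, 8668, 7446, 7200.1 and 7931 in FaDu and 232, 133, 134, 167 and 197 in SiHa. The lines did not overlap, and SiHa kept a measurable level (difference 5.41 ± 0.17, adjusted p = 2.26e-11). EPCAM was 6273 ± 767 and 72.2 ± 30.4 (difference 6.52 ± 0.24). The splicing regulator ESRP1 was 6843 ± 457 and 46.2 ± 10.8 (difference 7.20 ± 0.13), while its relative ESRP2 was 2238 ± 247 and 2075 ± 421 (interval -0.16 to 0.40). CDH3, the cadherin of basal cells, was 10574 ± 627 and 64.6 ± 22.7. The trafficking GTPase RAB25 was 2309 ± 205 in FaDu and a mean of 0.730 in SiHa. TJP1, a scaffold of tight junctions, was 3072 ± 223 and 4144 ± 522 (interval -0.63 to -0.22).

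CRB3, an apical polarity protein, was 728, 697, 727, 708 and 726 in FaDu and 2.70, 5.60, 3.59, 1.72 and 0 in SiHa (difference 7.84 ± 0.40). Its promoter is shown because it holds several copies of the E-box that ZEB1 and SNAI1 recognise. The 250 bases before its start, from RefSeq on GRCh38.p14, chr19:6464021-6464270, plus strand, hold 5 matches to CACCTG or to its reverse complement CAGGTG, in capitals; the other strand is covered by searching both forms, and the matches do not overlap.
CRB3 promoter: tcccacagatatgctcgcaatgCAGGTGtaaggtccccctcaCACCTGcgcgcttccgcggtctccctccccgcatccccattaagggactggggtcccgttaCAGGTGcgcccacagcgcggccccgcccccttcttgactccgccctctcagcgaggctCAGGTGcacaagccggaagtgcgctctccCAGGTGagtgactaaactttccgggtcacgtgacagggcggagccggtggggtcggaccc
RAB25 promoter: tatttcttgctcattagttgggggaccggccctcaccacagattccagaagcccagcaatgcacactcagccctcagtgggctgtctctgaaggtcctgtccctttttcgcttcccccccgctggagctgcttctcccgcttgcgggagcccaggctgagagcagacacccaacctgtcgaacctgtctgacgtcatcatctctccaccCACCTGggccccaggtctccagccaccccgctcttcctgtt
The RAB25 promoter (chr1:156060910-156061159, plus strand) holds 1 match, and those of CLDN4 and CLDN7, which were looked up as well, hold 0. Of 27305 promoters of this length, 17.5% hold at least 1 match, 2.55% at least 2 and 21 at least 5. Of the 22 adhesion genes tested that have a promoter in the table, 4 (18.2%) hold at least 1, so the class as a whole is near the share of all promoters. A match is a string of letters and not a measured binding site.

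**Figure D1:**
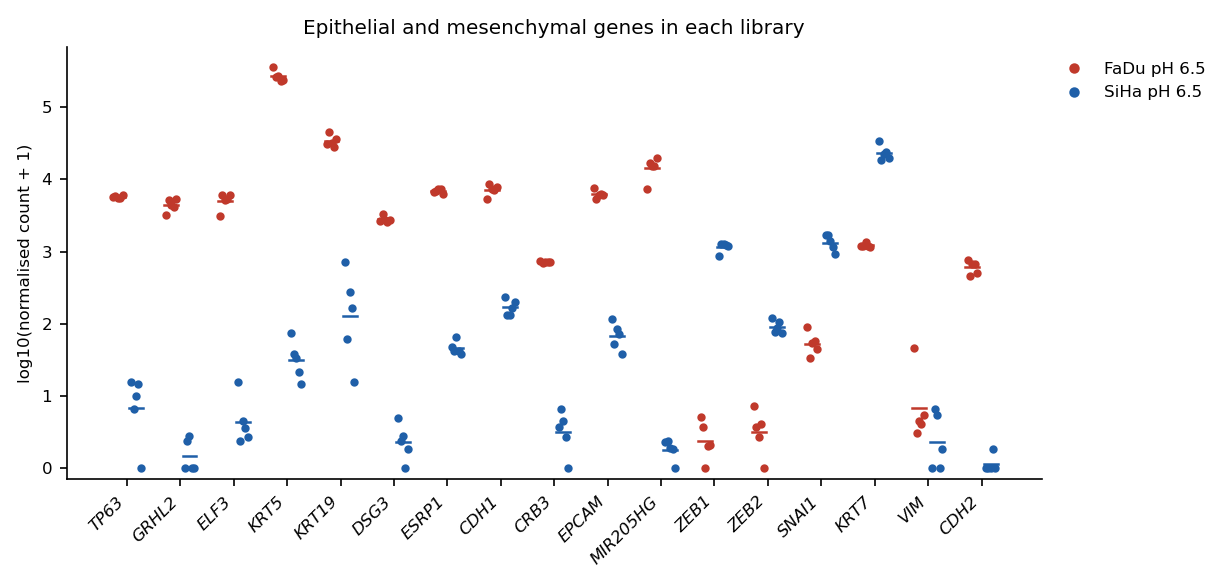
Normalised counts of 17 epithelial and mesenchymal genes as log10(value + 1), with 1 point per library and a bar at the mean of the log values; red points are FaDu and blue points SiHa at pH 6.5. Squamous and junction genes are high in all 5 FaDu libraries, ZEB1, ZEB2, SNAI1 and KRT7 are high in all 5 SiHa libraries, and VIM is low in both lines, with FaDu replicate 1 above the rest.

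Mesenchymal genes leaned to SiHa, with members in both directions. Of 31 tested, 4 were higher in FaDu and 15 in SiHa, with a median of -0.48. VIM, the intermediate filament of mesenchymal cells, was 44.8, 2.08, 3.50, 3.13 and 4.42 in FaDu and 0, 5.60, 4.48, 0 and 0.854 in SiHa. It is named although it was picked after its values were seen, since both lines were near 0 except FaDu replicate 1. CDH2, the cadherin of mesenchymal and neural cells, was 775, 452, 679.7, 676 and 503 in FaDu and a mean of 0.172 in SiHa. MYL9, a contractile light chain, was also higher in FaDu (3589.8 ± 722 against 34.6 ± 8.17). POSTN had 0 reads in FaDu and 30.2 ± 22.1 in SiHa. CD44, FSCN1, CNN3 and TPM2 were within 2-fold, with CD44 at 6429 ± 3153 and 6053 ± 1245.

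Matrix genes differed in both directions. Collagens were higher in FaDu for 15 of 30 and in SiHa for 9. COL4A1 and COL4A2, the paired chains of basement membrane collagen that are divergent neighbours, were 949 ± 313 and 3505 ± 1127 in FaDu and at means of 0.270 and 1.71 in SiHa. COL17A1, the hemidesmosomal collagen, was 7343 ± 2782 and 11.7 ± 3.82. COL3A1, a fibrillar collagen of connective tissue, was 1.04, 0.694, 0.875, 2.09 and 2.21 in FaDu and 2989, 2727, 1817, 1045 and 981 in SiHa (difference -9.55 ± 0.34). Among laminins and other glycoproteins 10 of 39 were higher in FaDu and 16 in SiHa. FBN2 and VCAN were at the floor in SiHa, with 1369.8 ± 427 and 133 ± 66.96 in FaDu, and HSPG2, the proteoglycan perlecan, was 531 ± 155 and 10804 ± 868 (difference -4.39 ± 0.17). LAMB3 and LAMC1, chains of epithelial laminins, were within 2-fold at 8585 ± 1308 and 9027 ± 2958 for LAMB3.

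Integrins, the receptors for that matrix, had 9 of 22 members higher in FaDu and 6 in SiHa; their median was -0.10 and their mean 0.58. ITGB4, the hemidesmosome subunit that binds laminin, was 14773, 14626, 15246, 15654 and 14607 in FaDu and 179, 81.2, 126, 127 and 134 in SiHa (difference 6.89 ± 0.16, adjusted p = 1.73e-12). Every FaDu value was above every SiHa value. ITGB6 was 1413 ± 578 and 11.04 ± 9.09, while the collagen receptors ITGA1 and ITGA11 were higher in SiHa (differences -3.92 ± 0.27 and -5.12 ± 0.44). ITGA6, the partner of ITGB4, was within 2-fold (2556 ± 937 and 2666 ± 436), and so were ITGB1 and ITGAV. Matrix proteases and their inhibitors were split, 20 of 52 higher in FaDu and 16 in SiHa. The plasminogen activators PLAU and PLAT were 6087 ± 2504 and 1060.3 ± 219 in FaDu and 5.83 ± 2.64 and 7.95 ± 3.70 in SiHa. ADAMTS1 was 90.6 ± 40.1 and 9098 ± 3503 (difference -6.65 ± 0.27).

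Several genes that were at the floor in a line lay next to each other. Among 13150 protein-coding genes kept (a mean of at least 50 in FaDu or SiHa at pH 6.5 or in HCT116 at pH 7.4), FaDu had 9 runs of successive genes with at most 3 reads in every library, 33 genes in all, and SiHa had 68 runs with 164 genes. Successive means next to each other among the genes kept, so genes under the limit are passed over. Of these runs, 3 in FaDu and 51 in SiHa were of 2 genes only. The share of kept genes at the floor in each line was not counted. How many runs would arise without any grouping was not tested. Every gene of the run had a mean of at least 100 in the other line for 2 of the FaDu and 19 of the SiHa runs, and the rest include genes that were low in both lines and kept through HCT116. These counts depend on the limits: with at most 10 reads in place of 3 they were 26 and 105, and with a mean of at least 20 in place of 50 FaDu had 21. The longest FaDu run held 10 successive genes, RRAGB, KLF8, UBQLN2, NBDY, SPIN3, SPIN2B, FAAH2, SPIN2A, ZXDB and ZXDA. UBQLN2, a shuttle factor for ubiquitinated proteins, was 1.04, 0, 0, 0 and 0 in FaDu, 3498, 3968, 3575, 3979.9 and 3841 in SiHa and 956 ± 93.7 in HCT116. KLF8 had 0 reads in FaDu and 804 ± 79.1 in SiHa, at least 282-fold higher. SPIN2A and SPIN2B are near-identical copies, so reads between them are uncertain. Gene order is from the reference table, and whether the DNA is present was not tested.

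SMAD4, the shared SMAD that carries TGF-beta and BMP signals to the nucleus, was part of another run. It stood at 2.08, 0.694, 0.875, 3.13 and 0 in FaDu and 1625, 1914, 1649, 1695 and 2059 in SiHa, with HCT116 at 2047 ± 172. FaDu was at the floor in all 5 libraries (difference -9.73 ± 0.32). Its neighbours ME2 and ELAC1 had 0 reads in FaDu, with 1255 ± 167 and 158 ± 38.6 in SiHa, at least 439.6-fold and 55.3-fold higher. MEX3C had a mean of 0.175 in FaDu and 1143 ± 108 in SiHa. The next genes on the side of ME2, beyond MAPK4, were measured in FaDu, SKA1 at 414 ± 74.5, CXXC1 at 793 ± 61.5 and MBD1 at 1168 ± 81.8. They were not equal between the lines. Of the 10 genes tested around SMAD4, 7 were higher in SiHa, 1 in FaDu and 0 within 2-fold. For all 10 the values of the lines did not overlap. A further run on the same chromosome, DSEL, TMX3 and CCDC102B, had means of 0.209, 0.396 and 0 in FaDu and 868 ± 58.98, 4072 ± 409 and 249 ± 111 in SiHa. SPINK6, MARCOL and SPINK13 formed another run, in which the protease inhibitor genes SPINK6 and SPINK13 were among the 15 largest differences towards SiHa. SPINK6 was 0, 0, 0, 1.04 and 2.21 in FaDu and 21268, 23243, 14216, 10947 and 8573 in SiHa. FaDu was at the floor, and the lowest SiHa library had 8573. HCT116 had SPINK6 at 0 ± 0.

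In SiHa the longest run was the kallikrein cluster, KLK5, KLK6, KLK7, KLK8, KLK10, KLK11 and KLK13, of which KLK7 had a mean of only 3.40 in FaDu. The run CDH2, DSC3, DSC2 and DSG3 joined the neural cadherin and the desmosomal cadherins that are described above. PCLO, SEMA3E, SEMA3A and SEMA3D formed a run in which SEMA3A, a secreted guidance cue, was 1202 ± 296 in FaDu and a mean of 0.280 in SiHa. Zinc finger genes formed a longer series of short runs, with ZNF91 at 1057 ± 115 in FaDu and 0 in all SiHa libraries, at least 329-fold lower. STK11, the kinase LKB1 that activates AMPK, was at the floor in SiHa by itself, with 2424, 2374, 2279.8, 2457 and 2605 in FaDu and 0, 0, 0, 0 and 1.71 in SiHa. HCT116 had it at 3614 ± 445. Every SiHa library had at most 3 reads, while most of the 31 genes of the LKB1, AMPK and TOR list stayed close: 7, STK11 included, were higher in FaDu, 2 in SiHa and 20 within 2-fold (median -0.04, mean 0.54). SIK1, a kinase that LKB1 activates, was 1567, 1361, 1825, 1960.3 and 1546 in FaDu and 26043, 16189.5, 17392, 17792 and 18036 in SiHa (difference -3.52 ± 0.13).

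The genes around CCND1, a region that is often amplified in carcinomas of the head and neck, were higher in FaDu as a block. Of 17 tested, 16 were at least 2-fold higher in FaDu and 0 in SiHa, with a median of 3.60. CCND1, the cyclin that drives cells through G1, was 20868, 27295, 25825, 26303 and 30128 in FaDu and 146, 419.7, 134, 64.6 and 18.8 in SiHa (difference 7.995 ± 0.59, adjusted p = 6.29e-08, and 7.41 without SiHa replicate 7). CTTN, an actin-binding protein picked after its values were seen, took 0.364% to 0.394% of all reads in FaDu and 0.0236% to 0.0280% in SiHa. FADD, the adaptor of death receptors, was 4155 ± 485 and 585 ± 85.2. MYEOV, FGF3 and FGF19 had 0 reads in every SiHa library, and FaDu had at least 855-fold, 124-fold and 75.4-fold more. Copy number was not measured. Around CDKN2A the 9 genes tested were not moved as a block, with 2 higher in FaDu, 3 in SiHa and MTAP at 1295 ± 233 and 1045 ± 80.9.

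**Figure D2:**
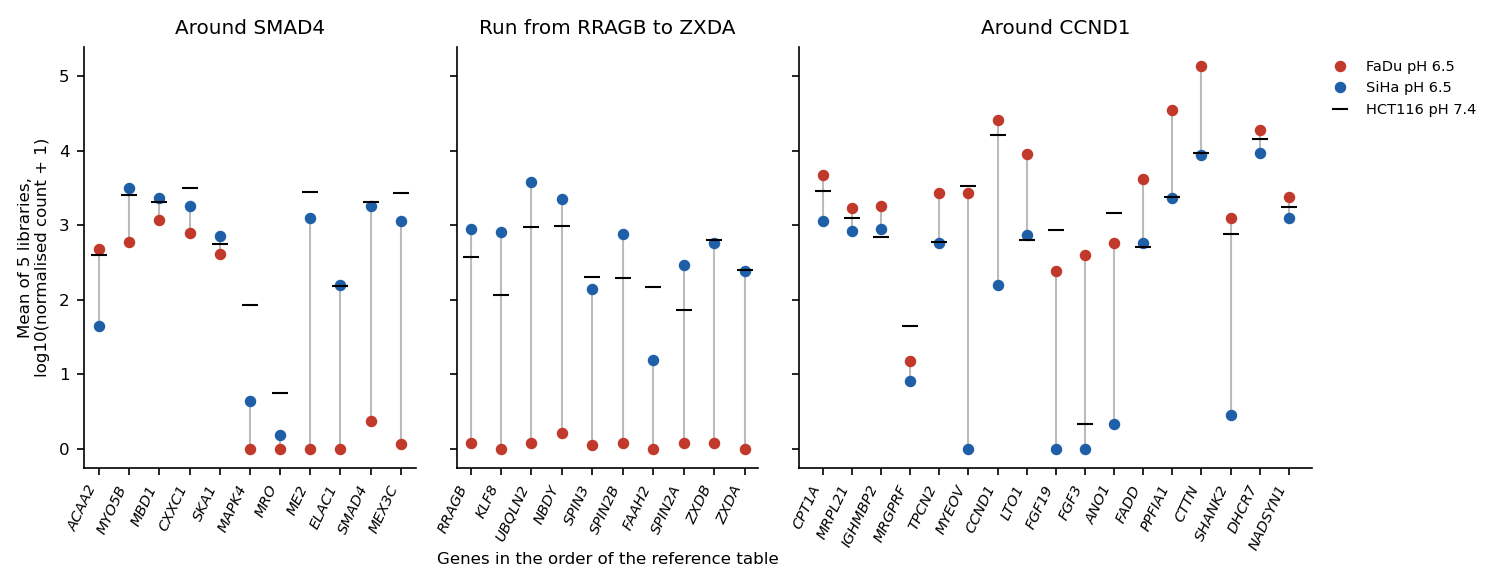
Mean normalised count as log10(value + 1) for genes around SMAD4, for the run from RRAGB to ZXDA and for genes around CCND1, in the order of the reference table. Red points are FaDu, blue points SiHa and black marks HCT116 at pH 7.4, 5 libraries each; FaDu is near 0 from ME2 to MEX3C and from RRAGB to ZXDA, and above SiHa around CCND1.

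Genes of DNA replication and mitosis were mostly close between the lines, while G1 regulators differed about as often as all genes. Of 43 DNA replication genes, 35 were within 2-fold, 2 higher in FaDu and 3 in SiHa. Of 30 mitosis genes, 21 were within 2-fold, 1 higher in FaDu and 4 in SiHa. MKI67, a marker of cycling cells, was 22704 ± 1987 and 20461 ± 5214 (interval -0.15 to 0.52), and MCM2, part of the replicative helicase, was 14614 ± 746 and 14175 ± 1061. RRM2, a subunit of ribonucleotide reductase, and the chromatin assembly factor CHAF1B were among the exceptions, at differences of -2.07 ± 0.15 and -2.64 ± 0.12. Among 31 G1 regulators, 6 (19.4%) were higher in FaDu and 7 (22.6%) in SiHa, near the shares over all genes, and 15 were within 2-fold (median -0.26, mean 0.21).

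CDKN2A, which encodes the inhibitor p16 and is known to be high where papillomavirus proteins inactivate RB1, was 2372, 1924, 2288, 2061 and 1913 in FaDu and 15258, 15606, 13301, 12658 and 12575 in SiHa (difference -2.72 ± 0.09, adjusted p = 4.34e-11). All SiHa libraries were above all FaDu libraries, and both lines expressed the gene. CDKN1A, the inhibitor p21, was 605 ± 158 and 4252 ± 2535 (difference -2.63 ± 0.35). CCND2 was 2512, 106, 248, 208 and 118 in FaDu, with replicate 1 far above the other 4, and a mean of 0.280 in SiHa. RB1 was within 2-fold (2623 ± 175 and 3589.8 ± 450.2), and CDK6 was 2030.3 ± 257 and 304 ± 96.7. Of 33 p53 regulators and targets, 5 were higher in FaDu and 5 in SiHa. CCNG1, a p53 target, was 3852, 2755, 3443, 3112 and 2479.7 in FaDu and 13.5, 6.996, 14.3, 3.45 and 11.1 in SiHa (difference 8.29 ± 0.30). BAX and TNFRSF10B, 2 other targets, were within 2-fold, at 5243 ± 317 and 3911 ± 578 and at 2337 ± 352 and 3645 ± 564.

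Regional transcription factors, which keep a record of position along the body axis, differed between the lines. Of 13 anterior HOX genes (paralogue groups 1 to 5), 4 were higher in FaDu and 2 in SiHa. Of 23 middle and posterior genes (groups 6 to 13), 0 were higher in FaDu and 11 in SiHa. HOXA3 was 411 ± 29.1 and 55.4 ± 16.1 (difference 2.92 ± 0.19), and HOXD10 was 109 ± 66.2 and 785 ± 112 (difference -2.99 ± 0.28). HOXB7, of the middle groups, was 882 ± 117 and 934 ± 109 (interval -0.32 to 0.15), so FaDu was not without transcripts of groups 6 to 13. Pharyngeal and foregut factors were higher in FaDu for 16 of 27 and in SiHa for 5. PAX9, a factor of the pharyngeal pouches, was 3009, 8440.2, 5725, 5354 and 7469 in FaDu and 90.3, 104, 121, 149.9 and 139 in SiHa (difference 5.56 ± 0.24, adjusted p = 4.07e-10). The lines did not overlap. GSC and ISL1 had 0 reads in SiHa, at least 39.99-fold and 16.3-fold below FaDu.

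Factors of the Muellerian and urogenital tract were split, with 7 of 22 higher in FaDu and 6 in SiHa. FOXF1, a factor of the foregut and urogenital mesenchyme, was 7.29, 4.86, 5.25, 6.27 and 7.73 in FaDu and 1489, 1753, 1360.1, 1806 and 2295 in SiHa (difference -7.90 ± 0.18), and its divergent non-coding neighbour FENDRR was 0.719 ± 1.03 and 4355 ± 968. PAX8 was 512 ± 78.4 and 1383 ± 92.4, and PAX2 had a mean of 0.139 in FaDu and 67.9 ± 16.01 in SiHa. WT1 and GATA4 had 0 reads in SiHa and 91.2 ± 44.5 and 260.4 ± 48.4 in FaDu. ESR1, the oestrogen receptor, was 181, 643, 522, 480.4 and 593 in FaDu and 4.04, 2.80, 0.897, 0.862 and 0 in SiHa (difference 7.58 ± 0.45). Every FaDu library was above every SiHa library.

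In TGF-beta and BMP signalling, 13 of 50 ligands, receptors and SMADs were higher in FaDu and 15 in SiHa. Among ligands, INHBB and GDF6 were higher in FaDu (383 ± 272 and 192 ± 33.5, against 1.06 ± 0.988 and 0), and TGFB1 was within 2-fold (2119 ± 649.7 and 3086 ± 786). The secreted BMP inhibitor NOG was 5.21, 2.78, 0, 5.22 and 0 in FaDu and 2058, 1838, 2381, 1277 and 821 in SiHa (difference -9.18 ± 0.55). FaDu was near the floor throughout. SMAD2 and SMAD5 were within 2-fold. Of 26 targets, 4 were higher in FaDu and 13 in SiHa, with a median of -1.01. SMAD6, ID2 and BAMBI, feedback and BMP targets, had differences of -4.27 ± 0.16, -4.13 ± 0.34 and -3.03 ± 0.23. NEDD9 ran the other way (2767 ± 869.9 and 25.5 ± 12.3), and SKIL was within 2-fold.

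Growth factor receptors and ligands were more often higher in FaDu. The EGFR family had 7 of 17 members higher in FaDu and 2 in SiHa. Its ligand TGFA was 852 ± 435 and 100.2 ± 45.8 (difference 3.10 ± 0.37) and NRG1 was 1537 ± 205 and 239 ± 103. The receptor EGFR was 24368, 34804, 26310.2, 26161 and 31093 in FaDu and 5085, 6333, 6269, 5446 and 5777 in SiHa (difference 2.30 ± 0.11, adjusted p = 7.14e-10). No value overlapped. ERBB3 was 2234 ± 442 and 228 ± 36.7, while ERBB2 was within 2-fold (4404 ± 506 and 2967 ± 329). Of the other growth factors and receptors, 29 of 63 were higher in FaDu and 17 in SiHa. The ligands PDGFB and PDGFC were 1162 ± 279 and 497 ± 20.6 in FaDu and 4.77 ± 3.31 and 1.75 ± 2.97 in SiHa. FGFR2 and the nerve growth factor receptor NGFR were 4593 ± 2118 and 1709 ± 154 in FaDu and 17.7 ± 2.84 and 1.34 ± 1.32 in SiHa. IGF1, outside this pattern, had a mean of 0.525 in FaDu and 383 ± 356 in SiHa.

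Wnt genes marked each line by a different ligand. WNT5A, the main ligand of the non-canonical pathway, was 11.5, 2.78, 0, 1.04 and 1.10 in FaDu and 21158, 15498, 19164, 16299 and 11655 in SiHa. FaDu had a few reads per library, and no SiHa library was below 11655 (difference -12.47 ± 0.51, adjusted p = 2.32e-10). WNT7A and WNT7B were 981 ± 257 and 6011 ± 494 in FaDu and 1.01 ± 1.82 and 148 ± 112 in SiHa. SFRP1, a secreted inhibitor, was 1.16 ± 1.01 and 442 ± 167. Over the list, 23 of 49 were higher in FaDu and 13 in SiHa, and the co-receptor LRP6 was 1879.8 ± 162 and 1909.5 ± 323 (interval -0.27 to 0.25).

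Notch genes were higher in FaDu for 11 of 29 and in SiHa for 4. The ligands DLL1 and JAG2 were 2823 ± 633 and 6263 ± 328 in FaDu and 12.9 ± 13.5 and 668 ± 170.2 in SiHa. The receptor NOTCH3 was 2354 ± 443 and 24.4 ± 12.9 (difference 6.65 ± 0.27), and NOTCH2 was within 2-fold. The target NRARP was 5913 ± 791 and 135 ± 47.96, and the target HEYL had 144 ± 20.5 in FaDu and a mean of 0.172 in SiHa. Of 38 semaphorins, neuropilins, plexins, slits and netrins, 20 were higher in FaDu and 8 in SiHa. NTN1, a netrin, was 1920.3 ± 146 and 25.5 ± 8.69, and SEMA3C was within 2-fold (5489 ± 839 and 4049 ± 884).

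Interferon-stimulated genes were higher in FaDu for 31 of 53 and in SiHa for 5, with a median of 1.32. IFI27 was 40925, 4102, 11092, 11329.6 and 3916 in FaDu and 18.9, 18.2, 26.00, 29.3 and 13.7 in SiHa (difference 8.81 ± 0.52, adjusted p = 7.69e-09). FaDu replicate 1 was the highest library of its line, as it was for IFI44 (10295, 3840.2, 6599.6, 6525 and 3069.6) and IFIT3 (11116, 1822, 3389.9, 3369 and 1525). Without it, 27 members were higher in FaDu and 5 in SiHa. SiHa had IFI44 at 179.8 ± 63.5 and IFIT3 at 347 ± 102. BST2, the tether of budding virions, ran the other way, at 2045, 311, 644, 675 and 243 in FaDu and 14271, 12592, 12847, 13253 and 9876 in SiHa (difference -4.42 ± 0.44), as did IFITM2 (difference -3.82 ± 0.26). STAT2 and HELZ2 were within 2-fold. Of 28 interferon ligands, receptors and sensors, 9 were higher in FaDu and 3 in SiHa. NLRP1, an inflammasome sensor of keratinocytes, was 2141 ± 496 and 5.18 ± 5.30 (difference 8.77 ± 0.44). TLR4, the endotoxin receptor, had 0 reads in FaDu and 108 ± 26.4 in SiHa. JAK1 was 6761 ± 285 and 6883 ± 129 (interval -0.16 to 0.10).

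Antigen presentation leaned to SiHa, with 10 of 32 members higher there and 2 in FaDu. CIITA, the activator of class II genes, was 31.9 ± 12.9 and 225 ± 66.3 (difference -2.81 ± 0.32), and the class II gene HLA-DRA was 12.8 ± 6.58 and 111 ± 37.1. B2M, the light chain of class I molecules, was 42527, 17941, 21056, 19908 and 20315 in FaDu and 75904, 82044, 81197, 81094 and 99177 in SiHa (difference -1.86 ± 0.20). All SiHa values were above all FaDu values. HLA-E and TAPBP were within 2-fold. ERAP2, a peptide trimmer, was higher in FaDu (3046 ± 1126 and 139 ± 33.7). HLA genes are polymorphic, so their counts also depend on how reads of each allele were placed.

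Cytokines and chemokines differed in both directions. Over the list, 31 of 67 were higher in FaDu and 21 in SiHa. The inflammatory ligand IL1B was 8349, 1105, 3164, 3971 and 1292 in FaDu and 60.6, 40.6, 42.1, 22.4 and 14.5 in SiHa (difference 6.36 ± 0.52, adjusted p = 1.80e-07), and its antagonist IL1RN was 344 ± 39.2 and 0.881 ± 1.26. CCL20 was 238 ± 129 and 0.899 ± 0.562. CCL2, the monocyte attractant, was 15.6, 3.47, 8.75, 12.5 and 9.94 in FaDu and 567, 1297, 671, 615 and 467 in SiHa (difference -6.06 ± 0.35). FaDu was low for CCL2 in each library. The decoy receptor IL13RA2 had a mean of 0.208 in FaDu and 236 ± 174 in SiHa. NFKBIA, a feedback inhibitor of NF-kappaB, was within 2-fold (8779 ± 1533 and 7424 ± 1283).

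Among 33 genes of apoptosis, 9 were higher in FaDu and 4 in SiHa (median 0.04, mean -0.14). The TRAIL receptor TNFRSF10A and the decoy receptors TNFRSF10C and TNFRSF10D formed a run at the floor in FaDu. TNFRSF10A was 1.04, 0, 0, 0 and 0 in FaDu and 342, 453, 409.7, 441 and 356 in SiHa, and TNFRSF10D had a mean of 0.221 in FaDu and 521 ± 85.5 in SiHa. The remaining TRAIL receptor, TNFRSF10B, was measured in both lines, as given above. BIK, a pro-apoptotic factor, was 772 ± 304 and 38.2 ± 5.07, and MCL1 was 10197 ± 589 and 10055 ± 2309 (interval -0.23 to 0.31).

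Acid handling differed in isoforms. Of 7 carbonic anhydrases tested, 2 were higher in FaDu and 2 in SiHa. CA2, the cytosolic enzyme, was 2186, 1759.8, 1816, 1873 and 1666 in FaDu and 36.4, 4.20, 16.1, 12.9 and 7.69 in SiHa (difference 7.13 ± 0.40, adjusted p = 4.54e-09). CA12, a membrane enzyme that faces outward, was 15.6, 3.47, 4.37, 13.6 and 8.84 in FaDu and 523, 624, 462, 536 and 1019.6 in SiHa (difference -6.09 ± 0.37). Each line thus had 1 of these enzymes at a high and the other at a low level, without overlap. CA9, the hypoxia-induced membrane enzyme, was low in both, at 15.7 ± 12.1 and 3.47 ± 1.83 (difference 1.65 ± 0.47, with overlap between the lines). The mitochondrial enzyme CA5B was 222 ± 16.01 and 812 ± 75.8 (difference -1.86 ± 0.10).

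Of 32 proton and bicarbonate transporters and acid sensors, 11 were higher in FaDu and 8 in SiHa. Of the sodium-proton exchangers of epithelia, SLC9A2 was 169 ± 24.9 and 4.78 ± 4.15 and SLC9A3 was 24.96 ± 9.38 and 241 ± 37.1. The bicarbonate transporters SLC4A2 and SLC4A7 were within 2-fold. The channel TRPV4 was 400.1 ± 92.8 and 24.8 ± 6.35, and the potassium channel KCNK2, which acid inside the cell opens, was 23.5 ± 15.3 and 811 ± 241 (difference -5.19 ± 0.35).

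Of 48 genes of glycolysis and lactate, 21 were within 2-fold, a share near that of all genes, with 14 higher in FaDu and 9 in SiHa. GAPDH was 56105 ± 14959 and 55344 ± 5408 (interval -0.34 to 0.32). EMB, a partner protein of lactate carriers, was 1028 ± 702 in FaDu and 0 in SiHa, at least 319.7-fold lower. The carrier SLC16A7 was 178 ± 25.6 and 1.23 ± 1.02, and FBP1, the gluconeogenic phosphatase, was 298 ± 160.3 and 3.996 ± 4.09. Of 34 hypoxia-inducible factors and targets, 5 were higher in FaDu and 7 in SiHa. HIF1A was 9260.3, 8053, 8651, 8644 and 8459 in FaDu and 34523, 45952, 43341, 42503 and 44402 in SiHa (difference -2.28 ± 0.09), and the angiogenic ligand VEGFA was 4587 ± 1025 and 18666 ± 842 (difference -2.05 ± 0.13). EPAS1 was within 2-fold (7094 ± 1009 and 5114 ± 473).

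Among genes of the lipid droplet, those called were more often higher in SiHa. Of 29 genes of lipid droplets and triglyceride turnover, 11 were higher in SiHa, 3 in FaDu and 10 within 2-fold, with a median of -0.10. G0S2, an inhibitor of triglyceride breakdown, was 1.04, 1.39, 0, 0 and 0 in FaDu and 3147, 4563, 2074, 2041 and 2333 in SiHa. FaDu was at the floor in all 5 libraries. LPIN2, GPAT3 and DGAT2, enzymes of triglyceride synthesis, had differences of -3.25 ± 0.20, -3.06 ± 0.19 and -2.58 ± 0.16, and the lipase MGLL of -2.50 ± 0.27. PLIN5, a droplet coat protein, had 41.4 ± 12.3 in FaDu and 0 in SiHa. Of 26 uptake and activation genes, 11 were higher in FaDu and 7 in SiHa. CAV1, the coat of caveolae, was 56428 ± 5646 and 3442 ± 854 (difference 4.07 ± 0.15), and the acyl-CoA synthetase ACSL5 was 51.9 ± 36.3 and 1046 ± 189.7 (difference -4.52 ± 0.34).

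Fatty acid oxidation genes were mostly within 2-fold, 22 of 36, with 8 higher in FaDu and 4 in SiHa (median -0.14, mean 0.37). ACAA2, a thiolase that lies near SMAD4, was 477 ± 93.5 and 43.8 ± 15.8 (difference 3.48 ± 0.26), and the coactivator PPARGC1A was 0.777 ± 0.463 and 95.8 ± 41.97. HADHA was 5512 ± 609.7 and 6822 ± 416 (interval -0.49 to -0.13). In fatty acid synthesis and desaturation 4 of 29 were higher in FaDu and 6 in SiHa. FASN was 44285 ± 6742 and 37411 ± 6464 (interval -0.04 to 0.53). FADS2, a desaturase, was 958, 886, 897, 768 and 1014 in FaDu and 13283, 14464, 9521, 8639.7 and 10080.1 in SiHa (difference -3.61 ± 0.14, adjusted p = 1.29e-10). The lines did not overlap. Of 34 cholesterol genes, 7 were higher in FaDu and 6 in SiHa. STARD4, a sterol carrier, was 3592, 3168, 3407, 2715 and 2961 in FaDu and 0, 0, 0, 0 and 0.854 in SiHa, which was at the floor. The synthesis enzyme MVD was 4598 ± 336 and 34105 ± 11200.0 (difference -2.83 ± 0.18), while HMGCS1 was within 2-fold.

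Steroid and retinoid metabolism included HSD3B1, one of the 15 largest differences towards SiHa. Of 38 tested, 15 were higher in FaDu and 11 in SiHa. HSD3B1, which makes progesterone and androstenedione from their precursors, was 0, 0, 1.75, 0 and 0 in FaDu and 3536, 2039, 1966, 1580.2 and 952 in SiHa. FaDu was at the floor. AKR1C3 and AKR1C2, ketosteroid reductases with similar sequences between which reads can be shared, were 82.5 ± 37.8 and 251 ± 109.8 in FaDu and 15209 ± 3916 and 9942 ± 4463 in SiHa. STS, steroid sulfatase, was 1.35 ± 1.28 and 421 ± 32.03 (difference -7.71 ± 0.38). The retinoid genes ALDH1A3 and CRABP1 were higher in FaDu, at 11194 ± 1119 and 447 ± 117 against 307 ± 65.1 and a mean of 0.179.

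NRF2 targets and drug metabolism genes went in both directions, 16 of 60 higher in FaDu and 21 in SiHa (median 0.10, mean -0.06). AKR1B1, aldose reductase, was 8879, 3491, 4713, 5364 and 5233 in FaDu and 165057, 313230.0, 218054, 160821 and 210422 in SiHa (difference -5.29 ± 0.23, adjusted p = 4.34e-10). It took 0.479% to 0.885% of all reads in SiHa. GPX2, GPX3 and GSTM4, glutathione enzymes, were higher in FaDu, with differences of 7.18 ± 0.30, 7.60 ± 0.59 and 7.74 ± 0.35; that of GPX3 was 6.97 without SiHa replicate 1. TXNRD1 and the ferritin chain FTH1 were within 2-fold. Of 39 ATF4 and amino acid stress genes, 5 were higher in FaDu and 7 in SiHa. ATF4 itself was 18132 ± 2292 and 13537 ± 2204 (interval 0.17 to 0.68), and NUPR1 was 166 ± 48.2 and 3238 ± 415 (difference -4.31 ± 0.17).

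Secreted factors linked to cachexia or to fat breakdown were examined as a list. Of 38 tested, 14 were higher in FaDu and 11 in SiHa (median -0.00, mean 0.73). GDF15, the hormone that suppresses appetite through a hindbrain receptor, was 811, 1083, 1221, 1214 and 1644 in FaDu and 18.9, 75.6, 16.1, 5.17 and 10.2 in SiHa (difference 6.03 ± 0.51, adjusted p = 2.38e-07). Every FaDu value was above every SiHa value. INHBB and IL1B were also higher in FaDu, and WNT5A and CCL2 in SiHa, with the values given above. ADM was 1564 ± 492 and 1564 ± 782 (interval -0.61 to 0.81), and BMP2 was 290.3 ± 19.3 and 384 ± 101 (interval -0.75 to 0.04). Protein secretion was not measured.

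**Figure D3:**
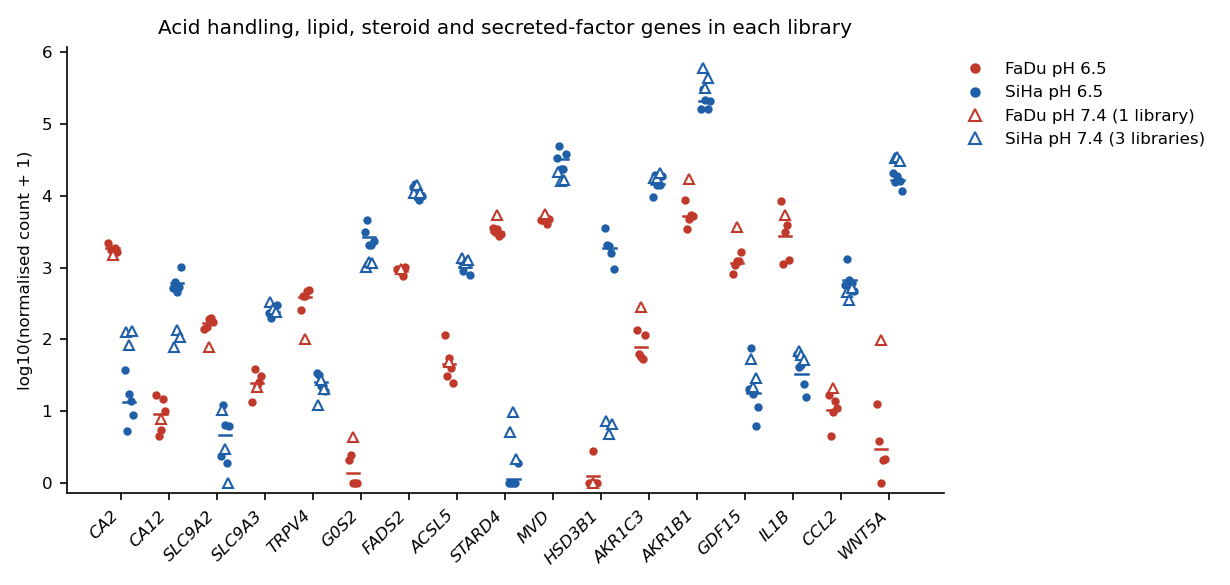
Normalised counts of 17 genes of acid handling, lipids, steroids and secreted factors as log10(value + 1), with 1 point per library and a bar at the mean of the log values; red is FaDu and blue SiHa at pH 6.5, and open triangles are FaDu replicate 1 and SiHa replicates 1, 4 and 5 at pH 7.4. CA2, GDF15 and STARD4 are high in FaDu, and CA12, G0S2, HSD3B1 and WNT5A are high in SiHa.

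Other gene classes were also examined. Cancer-testis antigens, which are silent in most adult tissue, had 7 of 52 members tested, of which 3 were higher in FaDu and 0 in SiHa. MAGEA4 was 11823, 9457, 9908, 9289 and 9847 in FaDu and 0, 0, 0.897, 0 and 5.12 in SiHa, and PRAME was 1264 ± 134 in FaDu and a mean of 0.270 in SiHa. Of 21 imprinted genes, 9 were higher in FaDu and 2 in SiHa. H19, a non-coding RNA expressed from the maternal allele, was 16165, 123424, 65865, 67678 and 98085 in FaDu and 70.1, 51.8, 53.8, 84.4 and 122 in SiHa (difference 9.70 ± 0.45, adjusted p = 7.44e-10). All FaDu libraries were above all SiHa libraries. The neighbours SGCE and PEG10 were 2776 ± 151 and 9099.5 ± 1414 in FaDu and 1.24 ± 1.86 and 13.7 ± 6.81 in SiHa, while GNAS was within 2-fold. Of 31 mucins and surface antigens, 15 were higher in FaDu and 9 in SiHa. NECTIN4 was 662 ± 68.4 and 5.21 ± 4.999, and PSCA was 13.3 ± 8.04 and 508 ± 105. Ribosomal and housekeeping genes, used as a reference class, had 18 of 30 within 2-fold, 7 higher in FaDu and 4 in SiHa, with EEF1A1 at 360995 ± 25749.8 and 250693 ± 27776 (interval 0.28 to 0.78).

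**Figure D4:**
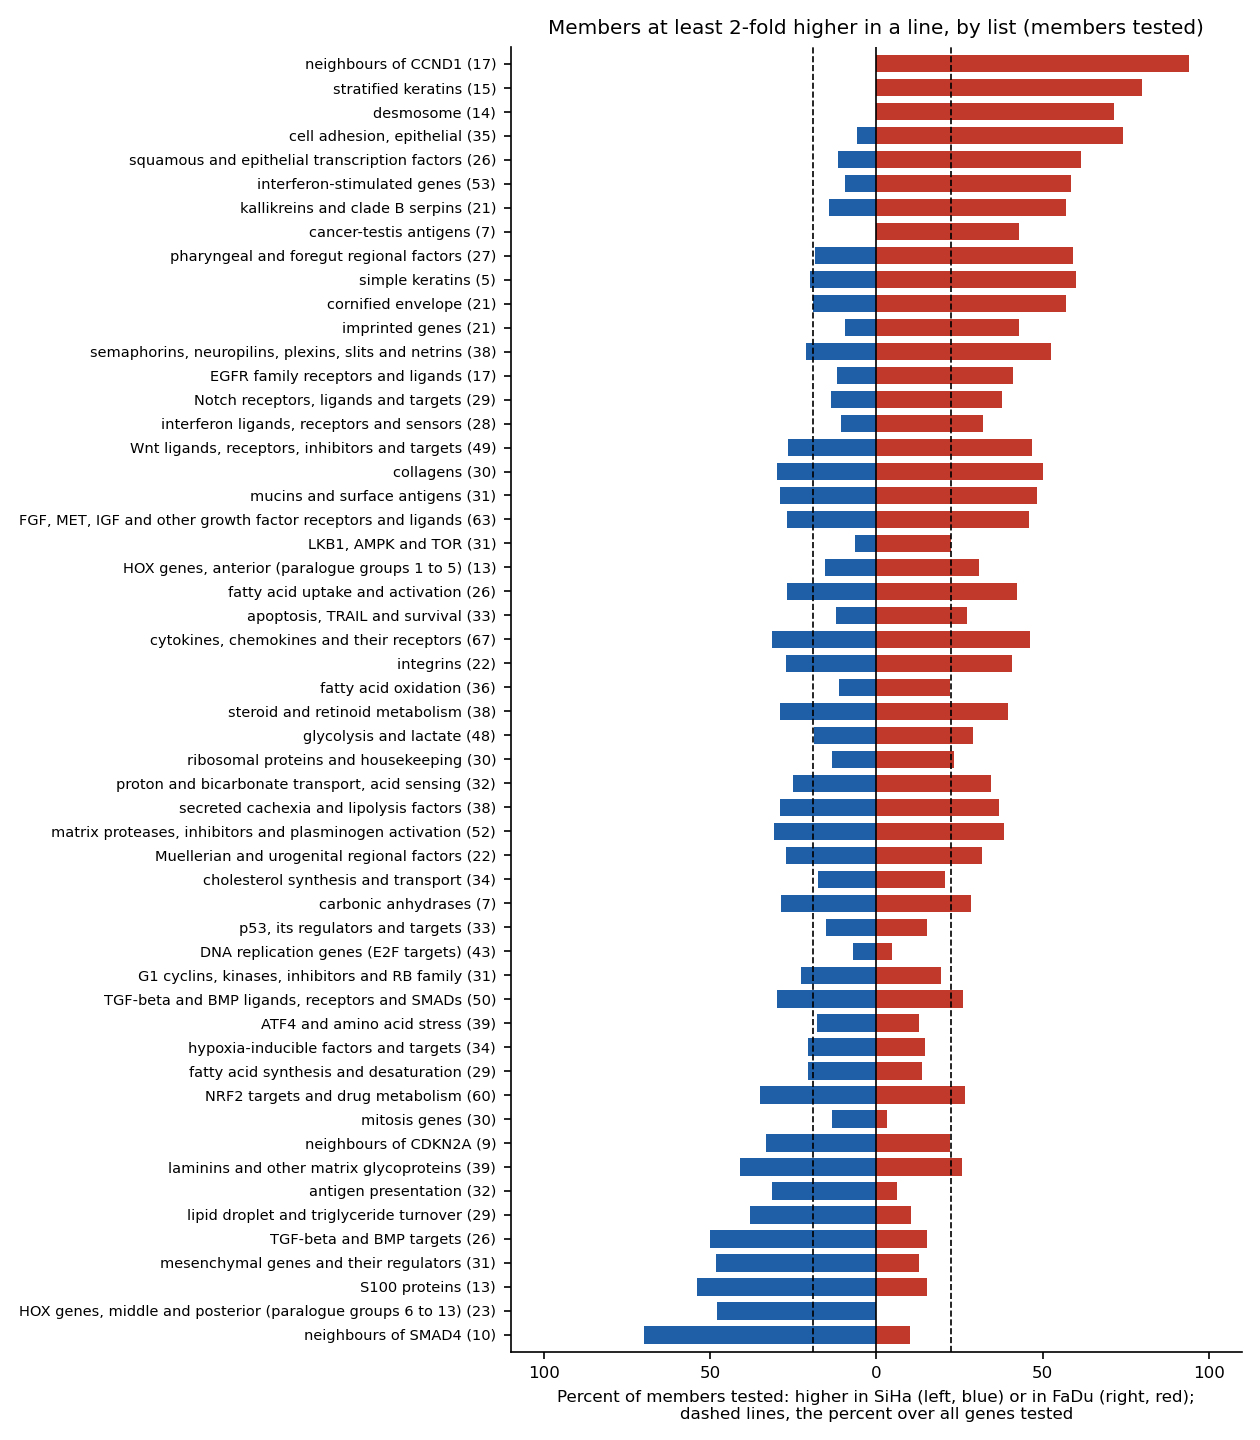
Percent of the members tested that were at least 2-fold higher in FaDu (red, to the right) or in SiHa (blue, to the left), for 54 gene lists with the number of members tested in brackets. Dashed lines mark the 22.5% and 19.1% over all genes tested; the genes around CCND1, stratified keratins and epithelial adhesion genes reach furthest to the right, and DNA replication and mitosis genes lie inside both lines.

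Outside the lists, the largest differences towards SiHa included EDNRB, the endothelin B receptor, at 1.27 ± 1.83 and 11484 ± 2309, and NNMT, which methylates nicotinamide, at 1.35 ± 1.51 and 8796 ± 2077. NEFH, a neurofilament protein, was 2.51 ± 0.789 and 13645 ± 2236, RANBP3L was 6.65 ± 4.32 and 23019 ± 11065, and SMOC1, a matrix protein that binds BMP pathway components, was 8.93 ± 4.52 and 13797 ± 2607. Towards FaDu they included the kinase SYK, at 3419.6 ± 504 and a mean of 0.270 in SiHa, the adhesion receptor ADGRL2, at 2102 ± 574 and 0.179, and the clathrin adaptor AP1M2 of epithelial cells, at 2766 ± 484 and 0.918 ± 1.31. The metallothionein MT1E had 2096 ± 1166 in FaDu and 0 in SiHa, at least 652-fold lower; its near-identical relatives make its counts uncertain.

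The same lines at pH 7.4 give a view of which differences are also seen there. Of the libraries labelled FaDu at pH 7.4, replicates 2, 3, 4 and 5 also contained HCT116-restricted genes, at 80.4%, 30.6%, 42.7% and 61.9% of the level in HCT116 (medians over 33 genes) and are not used here. FaDu replicate 1 at pH 7.4 had these at 0%, and in the 5 SiHa libraries at pH 7.4 genes of another line stood at no more than 0.0451%. SiHa replicates 6 and 7 at pH 7.4 had VIM at 2817 and 2863, against 2.04, 28.4 and 165 in replicates 1, 4 and 5. The values that follow are from FaDu replicate 1 and SiHa replicates 1, 4 and 5, so the FaDu side is 1 library and no test was made. SiHa replicates 6 and 7 passed the same check of the line. Apart from VIM, their values for single genes at pH 7.4 are not given here. Of 7794 genes called at 2-fold at pH 6.5 that reached 10 in at least 1 of these 4 libraries, the FaDu library at pH 7.4 lay beyond all 3 SiHa libraries in the same direction for 6983 (89.6%), in the opposite direction for 356 (4.57%) and within their range for 455. Beside all 5 SiHa libraries at pH 7.4, it lay beyond them in the same direction for 6755 genes (86.7%) and in the opposite direction for 267 (3.43%). KRT5 was 392676 in that FaDu library and 87.6, 66.3 and 75.6 in the SiHa libraries, and ZEB1 was 15.4 against 456, 661 and 504. SMAD4 was 0 against 1259.8, 1299.6 and 1314, and STK11 2511 against 0, 0 and 1.13. CA2 was 1505 against 123, 82.4 and 129.7, CA12 6.59 against 76.4, 133 and 106, and WNT5A 96.7 against 33758, 35282 and 30341. G0S2 was 3.30 against 1021, 1185 and 1147 and HSD3B1 0 against 6.11, 3.79 and 5.64. GDF15 was 3637 against 51.9, 20.8 and 28.2. The direction of these genes was that seen at pH 6.5 in the libraries named, although HSD3B1 was low in both lines at pH 7.4. APOE, the apolipoprotein, was an exception: it was 227, 210.3, 316, 287 and 258 in FaDu and 90.3, 65.8, 35.9, 62.04 and 89.7 in SiHa at pH 6.5, but 57.1 in the FaDu library and 988, 589 and 1227 in the SiHa libraries at pH 7.4.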

How the data were processed

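Reads per gene were measured by RNA sequencing in FaDu and SiHa cells at pH 6.5, 5 libraries each. The submitters' processing notes name the build GRCh37, DESeq2 1.22.2 and, among other tools, bcl2fastq 2.20, Trimmomatic 0.38 and the aligner STAR 2.6.1d. How reads were counted, with what strand setting and on which annotation is not given in the sources used here, so overlapping and antisense genes cannot be told apart. The deposited values, in the unit signal, are the authors' normalised counts for 38122 Ensembl genes. In each library the lowest value above 0 is worth 1 read, and dividing by it gave whole reads for 100.0% of values, within 0.01 of a step. The recovered size factors equal the median of ratios over all 30 libraries. Symbols came from the reference table for 35466 identifiers; list members without a match were not analysed here, and some genes are not reported here.

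The groups were taken from the labels, and the 10 libraries were compared without pairing. limma 3.58.1 in R 4.3.3 with an intensity trend was fitted to log2(normalised count + 1), with 2-sided tests and Benjamini-Hochberg adjustment over 19879 genes. Alternatives used other pseudocounts, filters and scalings, edgeR 4.0.16 (quasi-likelihood, 14723 genes with adjusted p under 0.05 on the recovered reads), DESeq2 1.42.0, other sets of libraries, a replicate block and each library left out in turn. The tests were checked on simulated data. Python 3.11.15, numpy 2.4.6, pandas 2.3.3 and matplotlib 3.10.9 made the tables and figures. The 54 gene lists and 8 marker lists, and the comparison itself, were chosen with earlier results of these data known. Named genes are, in each direction, the 15 largest differences (adjusted p under 0.05, mean of at least 100, no overlap) and the 8 highest genes detected in 1 line only; up to 6 called members per list, any member of lists with at most 15 tested, up to 4 members within 2-fold, and members of runs of neighbouring genes. Genes outside this rule are said to be so, apart from members of the CCND1 list plotted as a map. Sequences are from RefSeq tables on GRCh38.p14, matched by name: 6 of 6 microRNAs and 4 of the 8 promoters looked for (CRB3, RAB25, CLDN4 and CLDN7).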

Additional observations from a re-analysis of the deposited data

Results flagged for a closer look

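Among 304 genes of the text, 468 sets of 5 library values with a mean of at least 10 were examined for a value far from the other 4 of its line, by Dixon's criterion, and 56 held one; chance alone gives about 1 in 20. FaDu replicate 1 gave most of them. It was the highest FaDu library for the interferon-linked genes IFI27 (40925), IFIT3 (11116), BST2 (2045), IFITM2 (701), B2M (42527), HLA-E (13719) and ERAP2 (5034). It was also the highest for KRT14 (34178), S100A2 (41926), SFN (28419), COL17A1 (12265), ITGA6 (4229.9), ITGA1 (116), ST14 (10166) and CCND2 (2512). The same held for SHANK2 (2627), MRPL21 (2123), FADD (4995), HOXB7 (1084), HOXD10 (226), GSC (239), EMB (2276) and MT1E (4110.1). It held as well for ATF4 (22224), BIK (1295), CDKN1A (882), MAGEA4 (11823), TGFB1 (3238) and VIM (44.8). FaDu replicate 1 was the lowest for FGF3 (180.1), KLK8 (4.16), NECTIN4 (542) and NEDD9 (1243).

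In the other FaDu libraries the values apart were DSG3 (3296), LRP6 (2162) and TFAP2A (2756) in replicate 2, KRT7 (1352) in replicate 3, and AKR1C2 (442), GPX2 (1929) and SMAD5 (2081, the lowest) in replicate 5. In SiHa replicate 1 the immediate early genes FOSB, EGR1 and FOS, named after their values were seen, were 16015, 36348 and 43831, while the other 4 SiHa libraries had FOSB at 112, 60.1, 71.5 and 96.5. SIK1 (26043), MCL1 (14050.2), DLL1 (36.4) and NTN1 (40.4) were also highest there, and ZEB1 (864) lowest. SiHa replicate 4 was apart for CCL2 (1297), GDF15 (75.6) and IL13RA2 (539), replicate 5 for BAMBI (309, the lowest), and replicate 7 for B2M (99177), ID2 (278), NRARP (218) and GAPDH (45830.3, the lowest).

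For 3 of the genes named in the text, APOE and 2 others, the line difference ran in opposite directions at the 2 pH values; the difference between the pH values was not tested, and FaDu at pH 7.4 is 1 library. APOE was higher in FaDu at pH 6.5 but at 57.1 in FaDu at pH 7.4, below all 3 SiHa libraries. The other 2 were picked after their values were seen. AMPH, an endocytosis protein of neurons, was 3.22 ± 2.98 in FaDu and 995 ± 421 in SiHa at pH 6.5, and 13.2 against 5.09, 0.947 and 1.13 at pH 7.4. EDN2, an endothelin, was 113 ± 40.2 and 7.61 ± 6.82 at pH 6.5, and 18.7 against 125, 65.4 and 64.3 at pH 7.4.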

How the results depend on the processing

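Of 58 leading counts recomputed under other settings, 51 stayed within 1.5 times the value given. The 7 others depended on a limit. With a mean of at least 50 in place of 10, 2973 genes were higher in FaDu (4469 in the text); with no filter, 12637 were within 2-fold (8309). With at most 10 reads in place of 3, 155 genes were detected in SiHa only (82), and runs of neighbours numbered 26 in FaDu (9) and 105 in SiHa (68). With a mean of at least 200 in place of 100, 182 genes were detected in FaDu only (296), and with a mean of at least 20 keeping a gene FaDu had 21 runs. Leaving out each library in turn gave 14057 to 15113 genes with adjusted p under 0.05, 4408 to 4602 higher in FaDu, 3739 to 3810 higher in SiHa and 7925 to 8380 within 2-fold. It gave 291 to 313 genes detected in FaDu only and 80 to 89 in SiHa only. DESeq2 gave 4453 and 3849 genes at 2-fold, edgeR 4413 and 3903, and the share of such calls that were higher in FaDu was 52.1% to 56.8% over all settings. For named genes no called difference reversed, and of 2989 values with 1 library left out and 3575 under other settings 2958 and 3524 kept their side of adjusted p 0.05. PKP1 lost its call with DESeq2 (log2 difference 1.01), without FaDu replicate 2 (1.06) or SiHa replicate 4 (1.09) and in the 6 libraries of replicates 1, 4 and 5 with or without the block (0.67), and PKP1 and TRIM29 with all 30 libraries in 1 fit (1.23 and -1.43). Other named genes gained a call: EGR1 without SiHa replicate 1 (1.61), VIM without SiHa replicate 4 (1.92), and FOS and FOSB with edgeR (-4.27 and -5.04). Depth limits mainly the genes at the floor, where folds are bounds.

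FaDu and SiHa share replicate numbers 1, 4 and 5 in the labels, and deviations of same-numbered libraries correlated at 0.00775, 0.0286 and 0.0460. Pairs with different numbers ranged from -0.204 (FaDu replicate 2, SiHa replicate 4) to 0.229 (FaDu replicate 1, SiHa replicate 4). The labels do not say what the number stands for. These correlations cannot tell whether same-numbered libraries shared a preparation, since 2 lines may respond to it in different genes. With the replicate number as a block in these 6 libraries, 11922 genes had adjusted p under 0.05, 4165 were higher in FaDu, 3714 in SiHa and 6630 within 2-fold. The same 6 libraries without the block gave 12185, 4175, 3719 and 6786.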
